A study of Mus musculus with 4 samples.

Results

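Lymphatic endothelial cells (LECs) of the mouse fracture callus were taken from 4 single-cell libraries by the UMIs (unique molecular identifiers, which count captured RNA molecules) of 8 marker genes in each cell. A cell was kept with 1000 to 50000 UMIs, at least 500 genes and at most 15% mitochondrial UMIs. It was called lymphatic with at least 2 UMIs of Prox1 plus Mmrn1, at least 1 of Pecam1 plus Cdh5, at least 1 of Flt4, Lyve1 or Ccl21a, and no UMI of Ptprc. Of 29803 kept cells, 367 met the rule. They were 36 of 6400 cells in control callus at 4 days post-fracture (dpf), 50 of 5004 in RA callus at 4 dpf, 112 of 9039 in control callus at 7 dpf and 169 of 9360 in RA callus at 7 dpf. For comparison, 3197 blood endothelial cells (BECs) were taken by at least 2 UMIs of Pecam1, at least 1 of Cdh5 and none of Prox1. Cells that met both rules were kept as lymphatic and left out of the BECs. In the same library order these were 0, 9, 2 and 1 cells.

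The mice were wild-type C57BL/6J at 3 months old, and all had a tibial fracture. RA mice were given injections of K/BxN serum, which transfers autoantibodies and gives an inflammatory arthritis, and control mice were given vehicle. Per the labels, 4 calluses were pooled for each library and 10000 cells were loaded, whereas the study's methods give a smaller number per group. Each condition therefore rests on 1 library of pooled animals, so RA and control were not tested against each other within a day, and the intervals given for them cover counting error only. A model of both days together was not fitted. LECs and BECs were both present in each library, so their difference was tested with the library as the replicate (n = 4).

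Lymphatic vessels drain fluid, antigen and leukocytes from tissue. Their blind-ended capillaries are marked by high LYVE1 and CCL21, and lead into collecting vessels with valves. PROX1 is the transcription factor that sets and holds lymphatic identity, and VEGFR3, the product of Flt4, is the receptor through which VEGF-C drives lymphatic growth. CCL21 draws CCR7-positive dendritic cells and lymphocytes into the vessel, and MMRN1 is a secreted protein held in endothelial granules.

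The LECs held a median of 13194 UMIs per cell in control callus at 4 dpf, 18836 in RA callus at 4 dpf, 14316 in control callus at 7 dpf and 12315 in RA callus at 7 dpf. Summed over cells, these came to 597674, 1094415, 1865110 and 2394895 UMIs. A count of 3 UMIs, the upper limit that a count of 0 allows, corresponded to 5.02, 2.74, 1.61 and 1.25 CPM (the UMIs of a gene in a class of cells, divided by all UMIs summed over those cells and scaled to a total of 1e+06). No LEC barcode was shared between the LECs of different libraries. Between the arthritic libraries, 2 barcodes belonged to an LEC in 1 library and to another kept cell in the other. A doublet caller marked 1, 0, 4 and 5 of the LECs in the same library order. In RA callus at 4 dpf it marked 2 of all 5004 cells, too few for the caller to have worked there.

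The lymphatic label was checked with 2 genes that the rule did not read, Reln, a secreted glycoprotein of lymphatic endothelium, and Flt1, the VEGF receptor of blood endothelium. In the 236 cells with at least 20 UMIs of Prox1 plus Mmrn1, Reln was at 672 CPM and Flt1 at 25.6 CPM. In the 42 cells with 2 or 3 such UMIs, Reln was at 4.51 CPM and Flt1 at 697 CPM, so these cells went against the label. Ccl21a and Lyve1, which the rule read and which are given as a description, were at 8511 and 1046 CPM in the first set of cells and at 54.2 and 5.64 CPM in the second. The 83 cells just outside the threshold, with 1 such UMI and otherwise the same rule, had Reln at 4.25 CPM, Ccl21a at 108 CPM and Flt1 at 715 CPM. The cells with 2 or 3 UMIs were 7 of 36, 9 of 50, 15 of 112 and 11 of 169 LECs in control and RA callus at 4 dpf and control and RA callus at 7 dpf. In the next step, from 4 to 9 UMIs, the 9 cells of RA callus at 4 dpf still had Flt1 at 811 CPM and Ccl21a at 142 CPM, whereas the 11 cells of control callus at 7 dpf had no UMI of Flt1 and Ccl21a at 2906 CPM. The 10 cells of RA callus at 7 dpf had Flt1 at 418 CPM and Ccl21a at 5117 CPM, and the 1 cell of control callus at 4 dpf had Flt1 at 601 CPM and no UMI of Ccl21a. Several results below are also given for the 325 LECs with at least 4 UMIs of Prox1 plus Mmrn1. Among all 367 LECs, 15 lacked Prox1 and entered by Mmrn1 alone. Of these, 10 were in RA callus at 4 dpf, where they carried Stab2, a scavenger receptor of sinusoidal and lymphatic endothelium, at 491 CPM and Flt1 at 825 CPM.

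**Figure D1:**
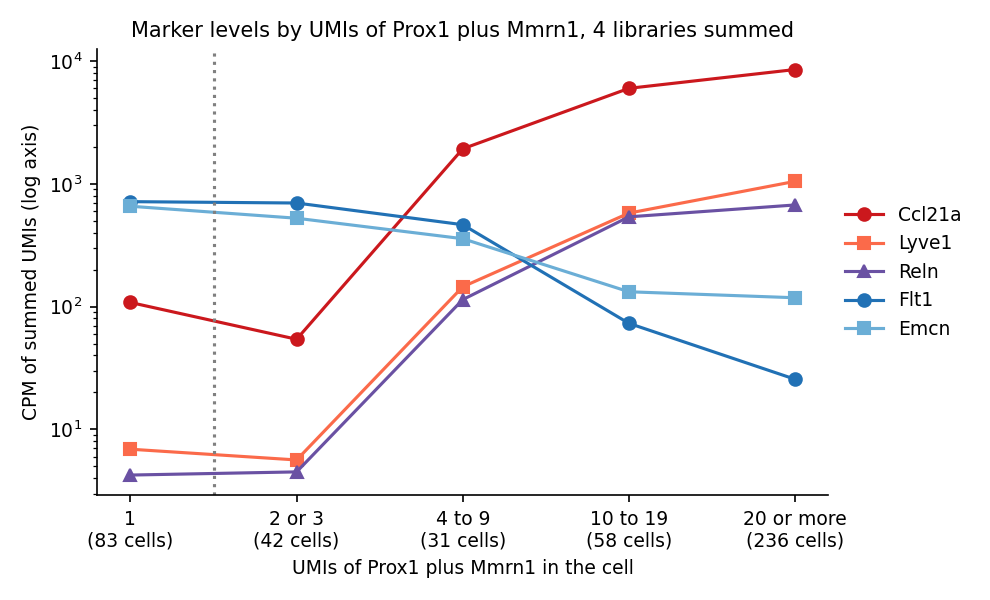
Level of 5 genes (CPM of UMIs summed over the cells of all 4 libraries, log axis) in cells binned by their UMIs of Prox1 plus Mmrn1, with the number of cells under each bin and a dotted line at the threshold of the rule. From 2 or 3 UMIs to 20 or more, Flt1, which the rule did not read, went from 697 to 25.6 CPM, and Ccl21a, which it read, from 54.2 to 8511 CPM.

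The cells were chosen by the UMIs of Prox1, Mmrn1, Pecam1, Cdh5, Flt4, Lyve1, Ccl21a and Ptprc, so the values of these genes are descriptions with no test. In the LECs of control callus at 4 dpf, RA callus at 4 dpf, control callus at 7 dpf and RA callus at 7 dpf, Prox1 (chr1:190118035-190170714, minus strand, GRCm38) was at 1007, 568, 686 and 983 CPM. Ccl21a was at 6254, 4691, 4980 and 8290 CPM in the same order. Its copies Ccl21b and Ccl21c are nearly identical in sequence and held almost no UMIs, so the assignment of these reads among the copies is uncertain. A UMI of Ccl21a was found in 61.1%, 62.0%, 83.0% and 84.6% of LECs. The share was 0.581%, 0.413%, 1.55% and 1.69% of BECs, with median depths of 20298, 21574, 14062 and 14398 UMIs. What part of this share was free RNA, and what part lymphatic cells with no UMI of Prox1, was not tested. Among LECs, the count of Ccl21a in a single cell ran from 0 to 542 UMIs in RA callus at 7 dpf, with a median of 103, and 26 of its 169 LECs had none. Lyve1 was at 745, 633, 473 and 1038 CPM, and was absent from 36 of the 169 LECs of RA callus at 7 dpf.

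Genes outside the rule with the largest differences between LECs and BECs were matched to RefSeq promoters (GRCm38.p6). Of the 15 named by the rule for large differences, 9 had an entry, with 14 start sites. The 250 bases before the start are shown as examples for Reln (chr5:22344706-22344955, minus strand), Apba2 (chr7:64501456-64501705, plus strand) and Sh3gl3 (chr7:82174546-82174795, plus strand). The windows shown for Apba2 and Sh3gl3 hold ACAAT, so these examples hold it more often than the 14 windows do. Apba2 has another window (chr7:64501888-64502137), which holds no ACAAT. Capitals mark ACAAT on either strand (ATTGT on the reverse), the core bound by SOX factors, of which SOX18 acts ahead of PROX1 in lymphatic development.
Reln: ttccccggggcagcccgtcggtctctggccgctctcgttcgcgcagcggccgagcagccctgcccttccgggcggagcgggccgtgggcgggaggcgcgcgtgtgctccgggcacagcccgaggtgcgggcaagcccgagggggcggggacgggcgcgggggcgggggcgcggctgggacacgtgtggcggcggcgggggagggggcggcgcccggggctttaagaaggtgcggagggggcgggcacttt
Apba2: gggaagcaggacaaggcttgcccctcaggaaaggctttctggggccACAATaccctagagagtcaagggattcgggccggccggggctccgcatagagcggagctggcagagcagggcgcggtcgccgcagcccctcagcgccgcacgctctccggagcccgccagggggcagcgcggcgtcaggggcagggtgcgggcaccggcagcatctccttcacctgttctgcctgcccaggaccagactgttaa
Sh3gl3: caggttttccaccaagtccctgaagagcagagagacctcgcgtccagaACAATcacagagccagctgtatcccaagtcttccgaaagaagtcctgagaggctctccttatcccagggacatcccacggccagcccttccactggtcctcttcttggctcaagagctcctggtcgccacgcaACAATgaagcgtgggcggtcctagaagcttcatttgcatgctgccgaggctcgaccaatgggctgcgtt
ACAAT was present in 3 of the 14 windows (21.4%) and in 27.7% of the 32851 promoter windows of the same length. AGGTCA or its reverse TGACCT, a binding half-site of nuclear receptors such as NR2F2, was in 1 of the 14 (7.14%) and in 14% of all windows. These are matches of letters and say nothing about binding.

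LECs made up 0.562% of kept cells in control callus at 4 dpf (95% Clopper-Pearson interval 0.394 to 0.778) and 0.999% (0.743 to 1.32) in RA callus at 4 dpf. At 7 dpf the shares were 1.24% (1.02 to 1.49) in control and 1.81% (1.55 to 2.10) in RA. Set against control, the RA share was larger by a ratio of 1.78 (exact interval 1.13 to 2.81) at 4 dpf and of 1.46 (1.14 to 1.87) at 7 dpf. From 4 to 7 dpf the share rose by a ratio of 2.20 (1.5 to 3.3) in control and of 1.81 (1.31 to 2.53) in RA callus. Over the same libraries, BECs made up 10.8%, 9.67%, 9.98% and 12.0% of cells. With at least 4 UMIs of Prox1 plus Mmrn1, the ratio of RA over control was 1.81 (1.10 to 3.02) at 4 dpf and 1.57 (1.21 to 2.05) at 7 dpf. With at least 1 UMI each of Prox1 and Mmrn1 it was 1.54 (0.917 to 2.62) at 4 dpf, within counting error, and 1.51 (1.17 to 1.97) at 7 dpf. As a share of the endothelial cells without Ptprc, LECs made up 3.25%, 5.70%, 5.78% and 6.48%, so that RA exceeded control by a ratio of 1.75 (1.12 to 2.77) at 4 dpf and of 1.12 (0.878 to 1.44) at 7 dpf. The excess at 7 dpf was therefore within counting error once set against the endothelial cells. With the same denominator, the ratio of 7 to 4 dpf was 1.78 (1.21 to 2.66) in control and 1.14 (0.824 to 1.59) in RA callus. Set against LECs plus BECs instead, it was 2.22 (1.51 to 3.33) in control and 1.40 (1.01 to 1.96) in RA callus, so that the rise in RA callus was within counting error with the first of these denominators and not with the second. RA over control at 7 dpf was then 1.18 (0.927 to 1.52). In another setting, cells of at least 4000 UMIs were thinned to 4000 before the rule was applied, and the other cells were left out. The ratio of RA over control was then 1.33 (0.772 to 2.30) at 4 dpf and 1.67 (1.27 to 2.20) at 7 dpf. The choice of denominator, and of depth with its smaller set of cells, thus moved each day's ratio differently. With 1 library of each kind the spread between animals is unknown.

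**Figure D2:**
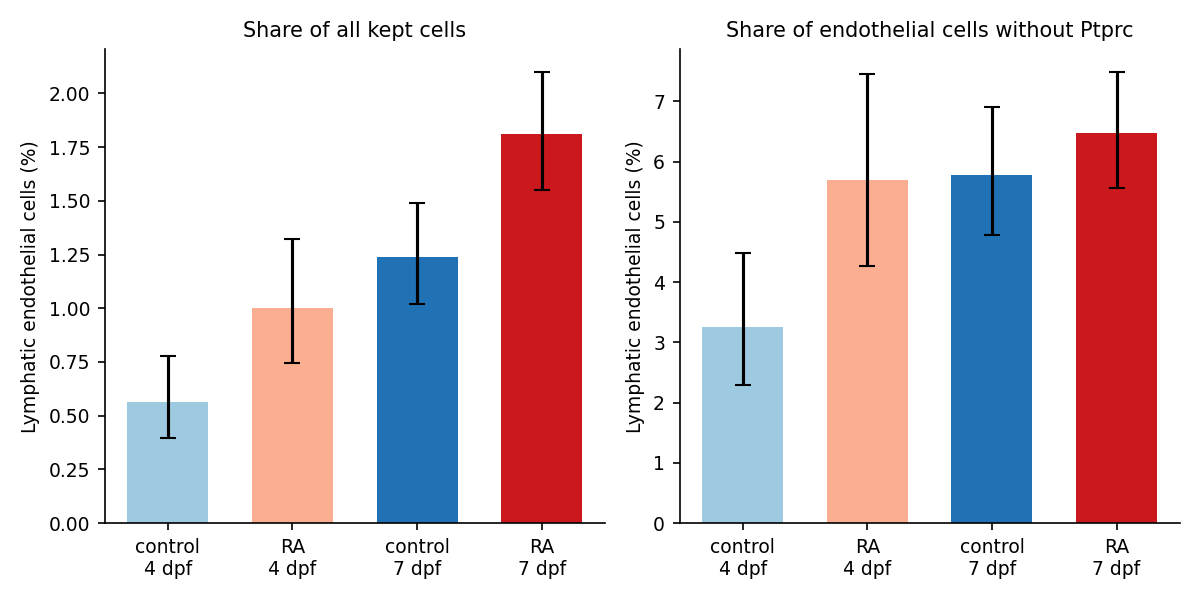
Lymphatic endothelial cells as a percentage of all kept cells (left) and of endothelial cells without Ptprc (right) in each of the 4 libraries; error bars are 95% Clopper-Pearson intervals and cover counting error only. The left panel runs from 0.562% to 1.81%, and in the right panel the 2 intervals at 7 dpf overlap (5.78% and 6.48%).

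Against BECs, 1208 of 13859 genes tested were higher in LECs (8.72%) and 1360 were lower (9.81%) by edgeR's quasi-likelihood test on UMIs summed per library and class, at an adjusted p under 0.05. The median log2 difference over all genes tested was 0.00. The genes read by the rule were not tested. Without the library of RA callus at 7 dpf, which held 169 of the 367 LECs, 675 genes were higher and 719 lower. Of the list of 20 lymphatic identity genes outside the rule, 19 were tested, of which 15 were higher in LECs, 1 was lower and 3 did not pass, with a median log2 difference of 3.24. Without any 1 library, from 13 to 15 were higher and none was lower. With the 325 LECs of at least 4 UMIs against the 2861 BECs without Ptprc, 15 were higher and 1 lower, and the median was 4.09. Of 24 tested genes typical of blood endothelium, none was higher and 19 were lower, with a median of -2.26, or -3.33 in that stricter comparison. Against venular BECs, those with at least 2 UMIs of Selp plus Ackr1, 4 of 23 were higher and 15 lower (1218 and 1473 of all 12391 genes). Selp and Ackr1 are themselves among those lower, and the choice of the venular BECs fixed their direction.

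Reln (chr5:21884454-22344702, minus strand) encodes reelin, which lymphatic endothelium secretes. In LECs it was at 432, 492, 413 and 613 CPM in control and RA callus at 4 dpf and control and RA callus at 7 dpf. In BECs it was at 0.130, 0.362, 3.03 and 0.984 CPM, below the LEC sum of each library. A UMI of Reln was found in 24 of 36, 34 of 50, 95 of 112 and 147 of 169 LECs. It was also found in 2 of 688, 1 of 484, 10 of 902 and 12 of 1123 BECs, so single cells of the classes overlapped. The log2 difference was 8.74 ± 0.52 (SE, n = 4 libraries, edgeR adjusted p = 3.03e-05). Scn3a, which encodes a voltage-gated sodium channel subunit, was also among the 15 genes that the rule named for the largest differences. Scn3a was at 115, 267, 418 and 437 CPM in LECs and between 1.10 and 1.99 CPM in BECs (log2 difference 7.54 ± 0.27, adjusted p = 2.30e-06). Others of this group were Apba2, Slc45a3, Sh3gl3, Dtx1, Pard6g, Sema3d, Tbx1, Il7, Gap43, Slc38a4, Foxp2 and Reep1, with log2 differences from 9.72 (Apba2, a neuronal adaptor protein) to 4.66 (Reep1, an endoplasmic reticulum shaping protein). Sema3d, a secreted semaphorin, had a log2 difference of 7.02 ± 0.38, and Gap43, a growth-cone protein, one of 6.00 ± 0.19.

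Among transcription factors, Maf was at 403, 386, 375 and 528 CPM in LECs and at 34.4, 41.7, 39.0 and 53.5 CPM in BECs (log2 difference 3.24 ± 0.10, adjusted p = 1.36e-06). Tbx1, a T-box factor that acts on Flt4, was higher by 6.61 ± 0.21 on the log2 scale (adjusted p = 1.36e-06). Foxp2, a forkhead factor found in collecting vessels, was higher by 5.80 ± 0.44 (adjusted p = 8.65e-05) and Foxc2, which is required for lymphatic valves, by 2.13 ± 0.28 (adjusted p = 0.00139). Nfatc1, which works with FOXC2 in valve formation, was higher by 1.28 ± 0.17 (adjusted p = 0.00135). Nr2f2, the venous and lymphatic partner of PROX1, was higher by 0.51 ± 0.11 (adjusted p = 0.0110), but differed by -0.21 (adjusted p = 0.116) from venular BECs. Sox18 was the only tested identity gene that was lower in LECs, by a log2 difference of -0.40 ± 0.11 (adjusted p = 0.0371). That call was lost when any 1 of the 4 libraries was left out, and against venular BECs the difference was -0.04 (adjusted p = 0.929). Gata2 and Hhex did not pass, with log2 differences of -0.19 ± 0.13 and -0.24 ± 0.13.

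Some surface and secreted markers of lymphatic capillaries were also higher, and others did not pass. Pdpn, the membrane glycoprotein podoplanin, was at 201, 271, 248 and 294 CPM in LECs and between 12.0 and 23.1 CPM in BECs (log2 difference 3.86 ± 0.14, adjusted p = 2.29e-06). Thy1 was higher by 4.00 ± 0.24 and Stab1, a scavenger receptor, by 2.29 ± 0.11 on the log2 scale. Of the 17 capillary, valve and collecting-vessel genes, 11 were higher, against 8.72% of all genes tested, and none was lower, against 9.81%. The other 6 did not pass, and the median was 1.73. Ptx3, a pattern recognition protein, was at 82.0, 83.1, 212 and 136 CPM in LECs and at most 13.3 CPM in BECs (log2 difference 3.70 ± 0.21, adjusted p = 2.53e-05). Mrc1, the mannose receptor, was at 18.4, 107, 91.1 and 53.9 CPM in LECs and did not pass (log2 difference 1.00 ± 0.44, adjusted p = 0.168). It passed with a log2 difference of 3.71 (adjusted p = 0.000241) in the stricter comparison, in which BECs with Ptprc, the leukocyte gene that the BEC rule did not bar, were left out.

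**Figure D3:**
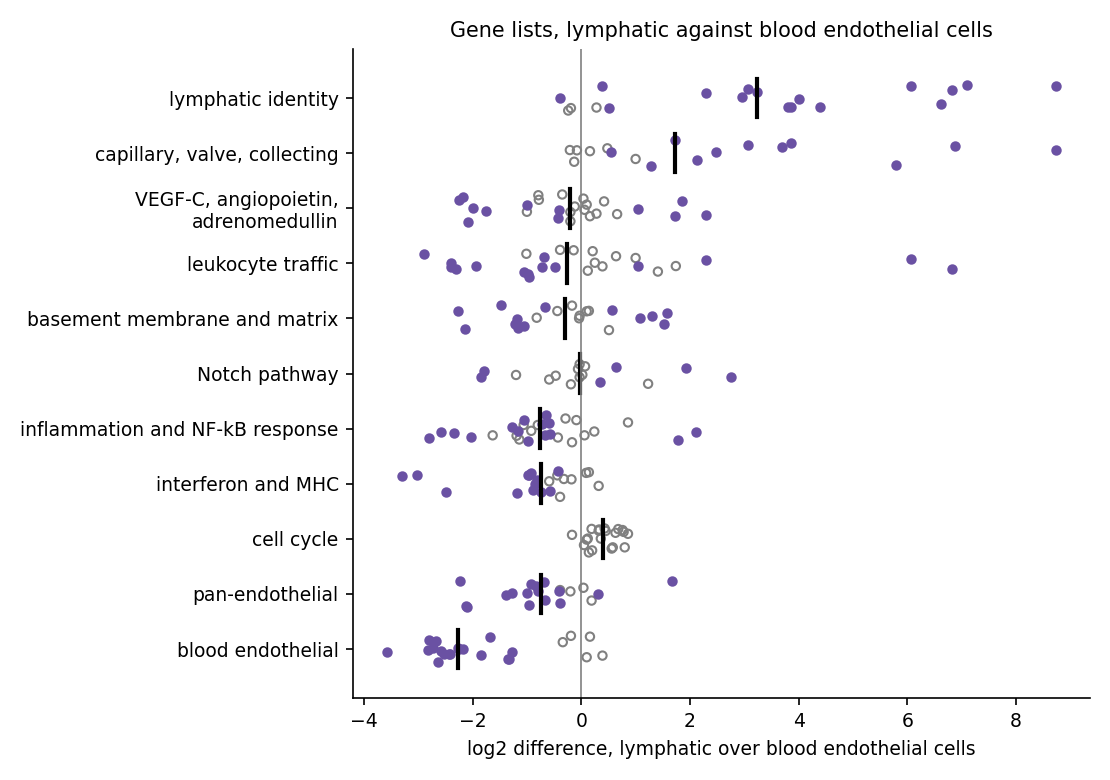
Log2 difference between lymphatic and blood endothelial cells for each tested gene of 11 lists (filled points, edgeR adjusted p under 0.05; open points, not passed; black bars, the list's median). The lymphatic identity list has a median of 3.24 and the blood endothelial list one of -2.26. The cell cycle list has one of 0.40 with 0 of 20 genes past the test. Without the library of control callus at 4 dpf, 12 of the 20 cell cycle genes were higher, beside 1223 of all 13937 genes.

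Of 26 tested genes of VEGF-C, angiopoietin and adrenomedullin signalling, 4 were higher in LECs, against 8.72% of all genes tested, and 8 were lower, against 9.81%. The ligand Angpt2, an angiopoietin that acts as an agonist in lymphatic vessels, was at 184, 416, 343 and 387 CPM in LECs and between 51.5 and 72.7 CPM in BECs (log2 difference 2.30 ± 0.20, adjusted p = 0.000173). Adm, which encodes adrenomedullin, was higher by 1.85 ± 0.24 (adjusted p = 0.00132) and the decoy receptor for adrenomedullin and CXCL12, Ackr3, by 1.05 ± 0.25 (adjusted p = 0.0225). The adrenomedullin receptor gene Calcrl had a log2 difference of -0.20 ± 0.11 (adjusted p = 0.265), and against venular BECs it was lower, by a log2 difference of -0.73 (adjusted p = 0.00124). Its partner Ramp2 was lower by a log2 difference of -0.41 ± 0.09 (adjusted p = 0.0128). Itga9, the integrin of lymphatic valves, was higher by 1.73 ± 0.12 (adjusted p = 6.62e-05). Vegfc itself was lower in LECs than in BECs, by a log2 difference of -2.00 ± 0.33 (adjusted p = 0.00382). Its VEGFR2 receptor gene Kdr was at 251, 362, 276 and 308 CPM in LECs, with a log2 difference of 0.16 ± 0.10 (adjusted p = 0.348), and was higher by 0.36 (adjusted p = 0.025) against venular BECs. Nrp1, the coreceptor of blood vessels, was lower by a log2 difference of -2.09 ± 0.22 (adjusted p = 0.000465), while Nrp2, the coreceptor for VEGF-C, did not pass (0.28 ± 0.15, adjusted p = 0.25). Tek, the angiopoietin receptor TIE2, was lower by a log2 difference of -0.99 ± 0.13 (adjusted p = 0.00124).

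In the list of 30 leukocyte traffic genes, 26 were tested, of which 4 were higher and 11 lower, where 8.72% and 9.81% of all genes tested were. The number lower was 6 without the library of RA callus at 7 dpf, when 719 of all 13840 genes were lower. It was 7 without that of control callus at 7 dpf, when 962 of all 13945 genes were. Those higher were Ackr2, Il7, Stab1 and Ackr3. Ackr2, a scavenger of inflammatory CC chemokines, was at 31.8, 57.6, 54.7 and 41.3 CPM in LECs and at most 0.725 CPM in BECs (log2 difference 6.82 ± 0.41, adjusted p = 3.06e-05). Il7, the cytokine that keeps lymphocytes alive, was at 61.9, 62.1, 45.6 and 71.8 CPM in LECs and at most 0.930 CPM in BECs (log2 difference 6.06 ± 0.19, adjusted p = 1.36e-06). Several adhesion and chemokine genes were lower. Jam2 was lower by a log2 difference of -2.90 ± 0.22 (adjusted p = 8.30e-05), Cxcl12 by -2.31 ± 0.24 (adjusted p = 0.000439), Icam1 by -0.98 ± 0.12 (adjusted p = 0.00106) and Vcam1 by -1.06 ± 0.30 (adjusted p = 0.0450). Ccl19, the other ligand of CCR7, had no UMI in RA callus at 4 dpf and at most 11.7 CPM in any LEC library, and did not pass.

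Of 22 matrix genes, 5 were higher in LECs and 9 lower, beside 8.72% and 9.81% of all genes tested. Fn1, which encodes fibronectin, was at 977, 1254, 1896 and 1207 CPM in LECs and at 294, 289, 639 and 502 CPM in BECs (log2 difference 1.58 ± 0.13, adjusted p = 0.000143). Timp3, a metalloproteinase inhibitor, was higher by 1.52 ± 0.14 (adjusted p = 0.000214), Lama4, a laminin chain, by 1.31 ± 0.14 (adjusted p = 0.000522) and Emilin1, which ties lymphatic endothelium to elastic fibres, by 1.08 ± 0.13 (adjusted p = 0.000868). The collagen IV chains Col4a1 and Col4a2 were lower by log2 differences of -1.20 ± 0.13 and -1.21 ± 0.12, and Igfbp7 by -2.27 ± 0.16 (adjusted p = 6.95e-05). Of 15 tested junction genes, 3 were higher (8.72% of all genes tested), 2 were lower (9.81%) and 10 did not pass, with a median of 0.09. Among those higher, Cldn5, the tight junction claudin of endothelium, was at 1024, 1124, 1049 and 1157 CPM in LECs and at most 394 CPM in BECs (log2 difference 1.67 ± 0.11, adjusted p = 5.59e-05). Jup, plakoglobin, was higher by 1.71 ± 0.13 (adjusted p = 7.96e-05). Of 20 pan-endothelial genes, 2 were higher and 14 lower, beside the same shares of all genes, with a median of -0.74. Of 16 Notch pathway genes, 4 were higher (8.72% of all genes tested) and 2 were lower, a share near that of all genes tested (9.81%). Without the library of RA callus at 7 dpf, 2 of the 16 were higher, beside 675 of all 13840 genes. The receptor gene Notch2 was higher by 1.92 ± 0.14 (adjusted p = 6.94e-05) and Notch4 lower by a log2 difference of -1.85 ± 0.25 (adjusted p = 0.00146), while Notch1 (0.07 ± 0.09) and Rbpj (-0.03 ± 0.11), the nuclear effector of the pathway, did not pass.

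Of 28 inflammation genes, 2 were higher in LECs than in BECs, against 8.72% of all genes tested, 13 were lower, against 9.81%, and 13 did not pass, with a median of -0.76. In the stricter comparison, and in that with all LECs against BECs without Ptprc, 4 were higher and 13 lower. Of all genes, 1324 of 13215 were higher and 1439 lower in the first of these, and 1155 and 1327 of 13189 in the second. Without the library of control callus at 7 dpf, 7 inflammation genes were lower, beside 962 of all 13945 genes. Of 21 interferon and MHC genes, none was higher (8.72% of all genes tested), 13 were lower (9.81%) and 8 did not pass, with a median of -0.74. In the stricter comparison, 9 of the 21 were lower, beside 1439 of all 13215 genes, with a median of -0.47. The 2 inflammation genes that were higher against all BECs were Ccl2, the monocyte chemokine, by 2.11 ± 0.40 (adjusted p = 0.00703), and Lbp, which encodes the lipopolysaccharide-binding protein, by 1.78 ± 0.24 (adjusted p = 0.00159). Sele and Selp, the selectins of activated venules, were lower by log2 differences of -2.81 ± 0.37 and -2.58 ± 0.31. Il1r1, the interleukin-1 receptor, was lower by a log2 difference of -2.34 ± 0.34 (adjusted p = 0.00216) and H2-K1, an MHC class I heavy chain, by -0.98 ± 0.11 (adjusted p = 0.000522). The MHC class II chaperone Cd74 was lower in the main comparison by a log2 difference of -3.03 ± 0.28 (adjusted p = 0.000216), but did not pass (0.37, adjusted p = 0.679) against BECs without Ptprc with LECs of at least 4 UMIs. Lcn2, a lipocalin that binds bacterial siderophores, did not pass in the main comparison (-0.80 ± 0.56, adjusted p = 0.404), and was higher in LECs by 4.53 (adjusted p = 0.000112) in the stricter one.

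The 10 genes named for the largest deficits in LECs were of 2 kinds. Camp, S100a9, S100a8, Ngp, Ltf, Chil3, Cd52 and Lyz2 are genes of neutrophils, macrophages and other leukocytes, with log2 differences from -7.46 to -3.66. The LEC rule barred any Ptprc and the BEC rule did not, and 336 of 3197 BECs had a UMI of Ptprc. Summed over 10 macrophage and myeloid genes, BECs held 2525, 5290, 3622 and 2929 CPM in control and RA callus at 4 dpf and control and RA callus at 7 dpf, and BECs without Ptprc held 90.5, 142, 97.8 and 128 CPM. LECs held 92.0, 158, 203 and 65.1 CPM. Without the BECs that had Ptprc, S100a9 and Lyz2 did not pass in the stricter comparison (log2 differences -0.11 and -0.16). The remaining members were Ackr1, the chemokine receptor of venules (-3.58 ± 0.32, adjusted p = 0.000207), and C1qtnf9 (-3.48 ± 0.29, adjusted p = 0.000131), which kept their differences at -5.04 and -5.27 there.

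**Figure D4:**
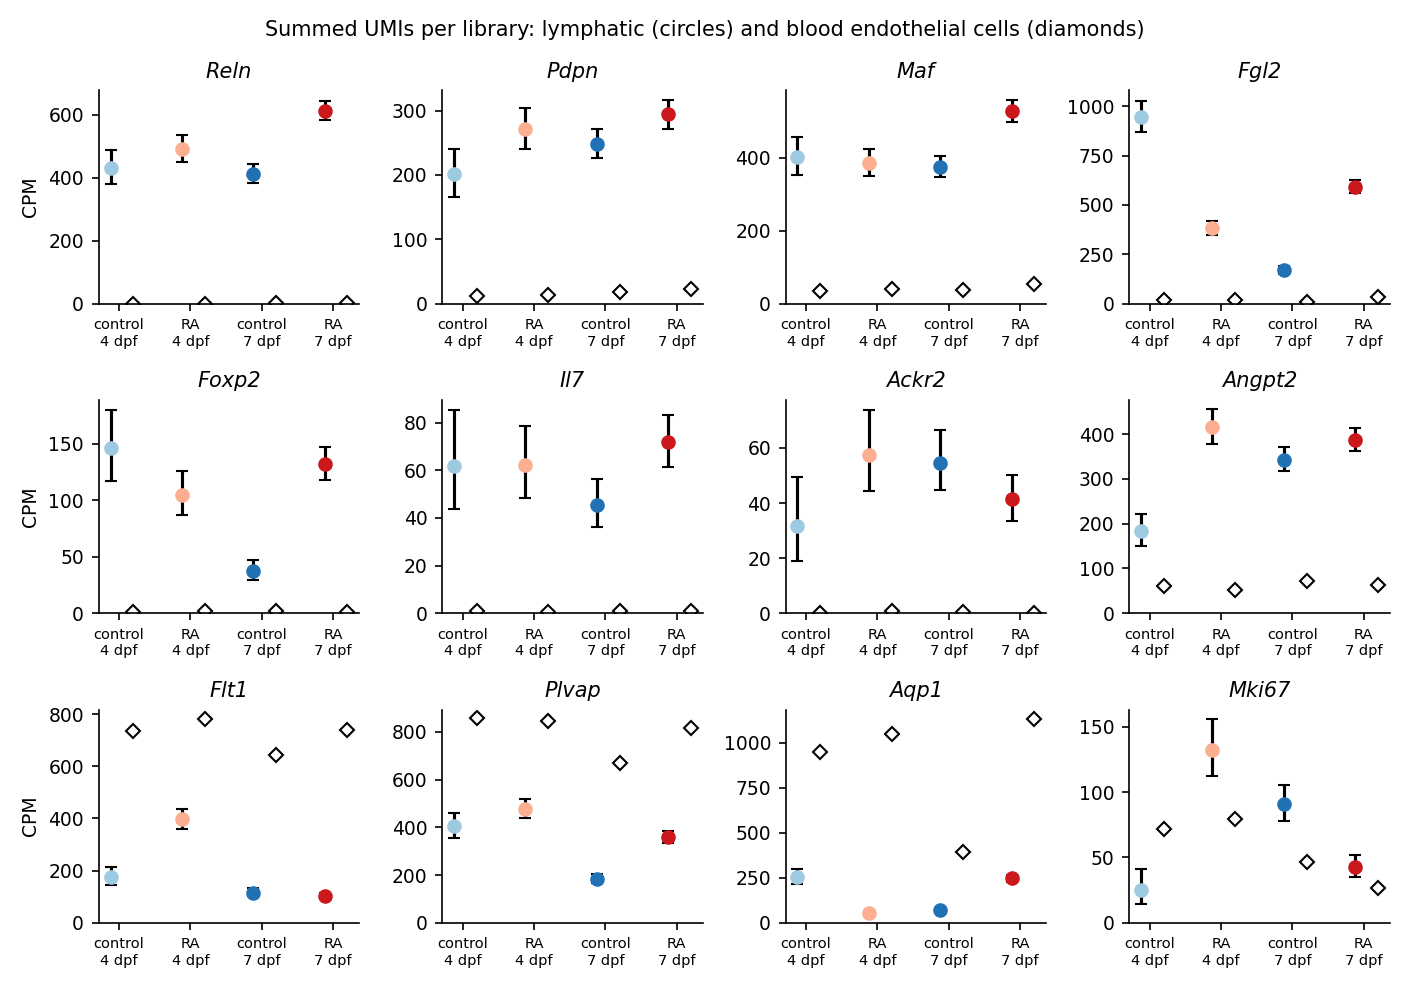
CPM of UMIs summed per library for 12 genes in lymphatic endothelial cells (circles, with exact 95% Poisson intervals) and blood endothelial cells (diamonds), in control and RA callus at 4 and 7 dpf. Reln, Pdpn, Maf, Il7 and Ackr2 are above the diamonds in each library, Flt1, Plvap and Aqp1 are below them, and Fgl2 and Foxp2 are lowest in control callus at 7 dpf (170 and 37.5 CPM).

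Some lymphatic genes varied widely between the libraries. Fgl2 (chr5:21372642-21378374, plus strand), which encodes a fibrinogen-like immunoregulatory protein, was at 947 CPM in control callus at 4 dpf, 382 in RA callus at 4 dpf, 170 in control callus at 7 dpf and 593 in RA callus at 7 dpf. RA over control gave 0.403 (exact interval 0.355 to 0.458) at 4 dpf and 3.49 (3.09 to 3.95) at 7 dpf, so the order of RA and control was opposite on the 2 days. In BECs the ratios for Fgl2 were 1.02 and 3.22. A UMI of Fgl2 was found in 83.3%, 70.0%, 56.2% and 82.8% of LECs. After thinning to 4000 UMIs, with LECs below that depth left out, it was found in 76.5%, 55.1%, 30.9% and 68.3%. Lbp followed the same order, at 455, 166, 83.6 and 223 CPM. Foxp2 (chr6:14901349-15441977, plus strand) was at 146, 105, 37.5 and 132 CPM, with a ratio of RA to control of 0.722 (0.542 to 0.965) at 4 dpf and 3.52 (2.71 to 4.62) at 7 dpf. It was in 17.9% of LECs of control callus at 7 dpf and in 46.7% of those of RA callus at 7 dpf, or 9.09% and 31.1% after thinning. Clca3a1 and Pld5 were chosen after their values were seen, since they ran in opposite directions. Clca3a1, a calcium-activated chloride channel regulator, was in 61.1%, 52.0%, 15.2% and 40.8% of LECs, and Pld5, of the phospholipase D family, in 2.78%, 18.0%, 47.3% and 24.3%. The first of these is 1 cell of 36, and none was left after thinning. Of Fgl2, Lbp and Foxp2, control callus at 7 dpf had the lowest level and control callus at 4 dpf the highest. With the 325 LECs of at least 4 UMIs, the log2 ratios at 7 dpf were 1.67 for Fgl2, 1.30 for Lbp, 1.53 for Foxp2 and 1.92 for Clca3a1.

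RA and control LECs were compared by the log2 of their CPM ratio, each CPM plus 10, in genes that held 20 or more UMIs in the pair of libraries of a day, with no test. At 7 dpf, 120 of 11214 genes were higher in RA by at least 2-fold (1.07%) and 82 were lower (0.731%). At 4 dpf, where fewer cells were summed, 313 of 8685 genes were higher (3.60%) and 238 lower (2.74%). The median ratio over all genes was 0.00 at 7 dpf and 0.06 at 4 dpf on the log2 scale. Lyve1 was the 1 gene of the rule past 2-fold, with a ratio of 2.19 (2.03 to 2.37) at 7 dpf and 0.850 (0.754 to 0.960) at 4 dpf. The ratios at 7 dpf were 1.66 (1.62 to 1.71) for Ccl21a, 1.66 (1.55 to 1.77) for Mmrn1, 1.43 (1.34 to 1.53) for Prox1 and 1.29 (1.18 to 1.41) for Flt4. At 4 dpf they were 0.750 (0.719 to 0.783) for Ccl21a, 0.684 (0.618 to 0.757) for Mmrn1, 0.564 (0.504 to 0.632) for Prox1 and 1.02 (0.872 to 1.18) for Flt4. Since these genes chose the cells, their ratios are descriptions. Of the identity genes outside the rule, 15 of 19 were above 0 at 7 dpf, with a median of 0.24, and 9 of 19 at 4 dpf, with a median of -0.03.

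All 20 cell cycle genes were above 0 at 4 dpf, 11 of them were higher by at least 2-fold, against 3.60% of all genes, and the median was 1.57. Mki67, the proliferation antigen, was at 25.1 CPM in control callus and 132 CPM in RA callus at 4 dpf, a ratio of 5.28 (3.10 to 9.68). Top2a, the mitotic topoisomerase, was at 20.1 and 170 CPM, a ratio of 8.46 (4.73 to 16.7). At 7 dpf the order was reversed, with 1 of 20 genes above 0, 3 lower by at least 2-fold (0.731% of all genes) and a median of -0.74. Mki67 was then at 90.6 CPM in control and 42.6 CPM in RA callus, a ratio of 0.470 (0.364 to 0.605), and Top2a at 145 and 82.7 CPM. Cells with a UMI of both Mki67 and Top2a made up 8.33% of LECs in control callus at 4 dpf (3 of 36 cells, Clopper-Pearson interval 1.75 to 22.5), 20% in RA callus at 4 dpf (10.0 to 33.7), 23.2% in control callus at 7 dpf (15.8 to 32.1) and 8.28% in RA callus at 7 dpf (4.60 to 13.5). The interval at 4 dpf in control was wide and overlapped that of RA, and the 2 intervals at 7 dpf did not overlap. In BECs, the ratio of RA to control for Mki67 was 1.10 at 4 dpf and 0.575 at 7 dpf, so the order at 7 dpf was the same in both classes. With LECs of at least 4 UMIs, all 20 cell cycle genes were above 0 at 4 dpf (median 1.46) and 2 of 20 at 7 dpf (median -0.62).

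Of the inflammatory genes, 23 of 26 were above 0 at 7 dpf, 6 were higher by at least 2-fold, against 1.07% of all genes, 2 were lower, against 0.731%, and the median was 0.51. At 4 dpf, 10 of 25 were above 0, 6 were higher by at least 2-fold (3.60% of all genes) and 4 lower (2.74%), and the median was -0.12. Cxcl1, a neutrophil chemokine, was at 78.6, 42.0, 15.5 and 71.4 CPM in control and RA callus at 4 dpf and control and RA callus at 7 dpf, with a ratio at 7 dpf of 4.59 (3.08 to 7.06). Lcn2 was at 172, 84.1, 15 and 61.8 CPM, with a ratio of 4.12 (2.73 to 6.41) at 7 dpf and of 0.488 (0.364 to 0.653) at 4 dpf. Selp was at 110, 68.5, 13.4 and 108 CPM, with a ratio of 8.04 (5.32 to 12.7) at 7 dpf, when a UMI of it was found in 8 of 112 LECs of control and 18 of 169 LECs of RA callus. In the LECs of at least 4 UMIs at 7 dpf, Selp was at 2.49 CPM in control and 55.7 CPM in RA callus. In BECs, the ratios at 7 dpf were 0.870 for Cxcl1, 0.756 for Lcn2 and 2.10 for Selp. Ccl2 was at 202, 764, 159 and 163 CPM, and was highest in RA callus at 4 dpf, where its ratio was 3.77 (3.11 to 4.60) in LECs and 0.776 in BECs, with 324 of its 836 UMIs in 1 cell. Of the interferon and MHC genes, 2 of 20 were higher by at least 2-fold at 4 dpf (3.60% of all genes) and 1 of 20 at 7 dpf (1.07%). None was lower by at least 2-fold, and the medians were 0.22 and 0.29. Isg15, an interferon-induced ubiquitin-like protein, was at 88.7, 332, 38.6 and 103 CPM, with ratios of 3.74 (2.80 to 5.09) at 4 dpf and 2.66 (2.04 to 3.51) at 7 dpf. Without the cell of most Isg15 UMIs in each library, its log2 ratio was 1.23 in place of 1.79 at 4 dpf and 0.85 in place of 1.21 at 7 dpf. The 14 immediate early genes, which also respond to tissue dissociation, were all above 0 at 7 dpf with none past 2-fold, and had a median of 0.45, against 6 of 14 above 0 at 4 dpf and a median of -0.09. Jun was at 738, 445, 468 and 816 CPM.

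**Figure D5:**
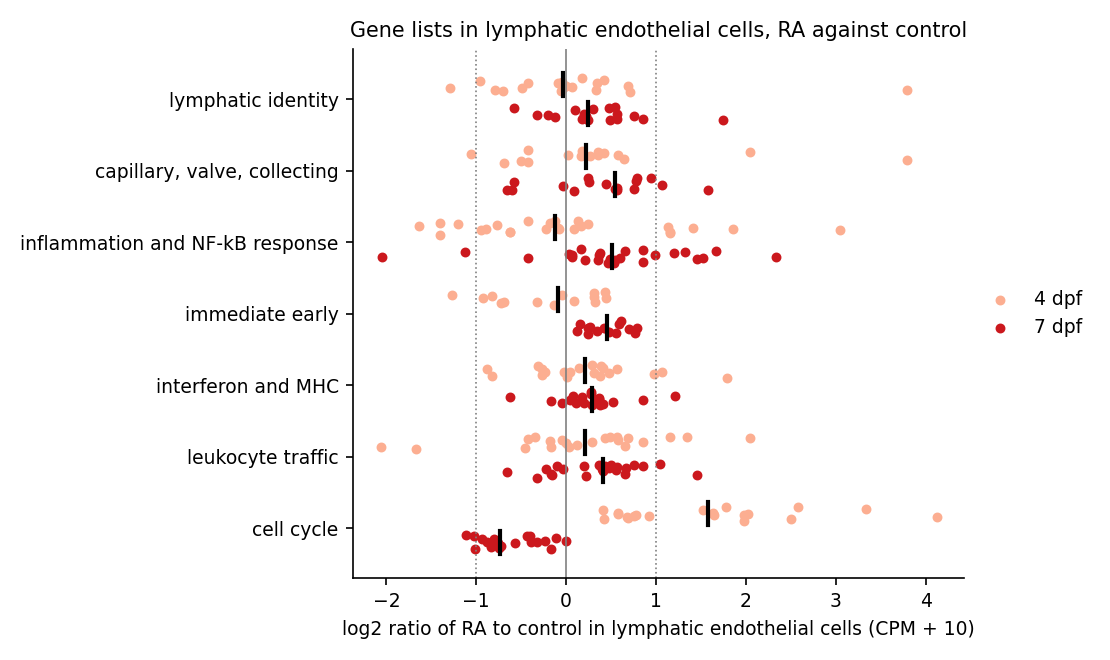
Log2 ratio of RA to control in lymphatic endothelial cells (CPM plus 10) for each measured gene of 7 lists at 4 dpf (light points) and 7 dpf (dark points), with black bars at the medians and dotted lines at 2-fold; each point compares 1 library with 1 library. The cell cycle list has medians of 1.57 at 4 dpf and -0.74 at 7 dpf.

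The genes named for the largest ratios in the same direction on both days were Ccl5, Eln, Atpaf2, Vcam1, Itgbl1, C3, Akr1b3 and C1s1 on the higher side, and Comp, Prg4, Apoe, Des, Lyz2, Kcnq5, Nebl and Fdps on the lower side. Many of them were decided by 1 cell. Ccl5 held 470 UMIs in RA callus at 4 dpf, of which 257 were in 1 cell, and 103 in RA callus at 7 dpf, of which 93 were in 1 cell. Comp, a cartilage matrix protein, held 862 UMIs in control callus at 7 dpf, of which 689 were in 1 cell. Akr1b3, aldose reductase, had a log2 ratio of 1.28 at 7 dpf and of -0.29 without the cell of most Akr1b3 UMIs in each library. Eln, which encodes elastin, was spread over more cells. It was at 88.7, 98.7, 84.7 and 273 CPM in control and RA callus at 4 dpf and control and RA callus at 7 dpf, and was found in 56 of 112 LECs of control and 108 of 169 LECs of RA callus at 7 dpf. Its ratio at 7 dpf was 3.22 (2.71 to 3.86). The log2 ratio of 1.58 was 1.22 without the cell of most Eln UMIs in each library and 0.97 with LECs of at least 4 UMIs. C3, the central complement component, was at 25.1, 38.4, 17.7 and 63.5 CPM, in 9 of 112 LECs of control and 47 of 169 of RA callus at 7 dpf, with a ratio of 3.59 (2.45 to 5.40). The ratio of C3 in BECs at 7 dpf was 3.16. Vcam1 was at 30.1, 79.5, 27.9 and 93.5 CPM, with ratios of 2.64 (1.58 to 4.66) at 4 dpf and 3.35 (2.47 to 4.63) at 7 dpf, against 1.01 and 0.902 in BECs. At 7 dpf it was found in 18 of 112 LECs of control (16.1%) and 26 of 169 LECs of RA callus (15.4%), so no larger share of cells held it, and 85 of its 224 UMIs in RA callus were in 1 cell. Fdps, an enzyme of the mevalonate pathway, was at 40.2, 29.2, 67.0 and 23.0 CPM, with a ratio of 0.343 (0.245 to 0.474) at 7 dpf and 0.441 in BECs.

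Markers of other cell types were present in the LEC sums and moved between libraries. Of the genes typical of blood endothelium, 15 of 22 had a log2 ratio of RA to control (CPM plus 10) above 0 in LECs at 7 dpf and 7 did not. By at least 2-fold, 6 were higher, against 1.07% of all genes, and none was lower, against 0.731%, and the median was 0.48. With LECs of at least 4 UMIs, 12 of 18 were above 0, 5 were higher and none lower by at least 2-fold, with a median of 0.48. At 4 dpf, 11 of 23 were above 0, 2 were higher (3.60% of all genes) and 5 lower (2.74%) by at least 2-fold, and the median was -0.01. Summed over 8 mesenchymal genes, of which all 8 were detected in each library, LECs held 5993 CPM in control callus at 4 dpf, 325 in RA callus at 4 dpf, 3088 in control callus at 7 dpf and 5889 in RA callus at 7 dpf, with Col3a1 the most abundant in the first and last at 2030 and 1636 CPM. In control callus at 4 dpf the sum was 317 CPM in LECs of at least 4 UMIs, with Prrx1, Pdgfra and Lum at 0. Summed over 5 erythroid genes, LECs held 1650, 3.65, 260 and 370 CPM in the same library order, led by Hbb-bs at 877, 2.74, 127 and 202 CPM, and BECs held 715, 6.07, 438 and 649 CPM. Alas2, Hba-a1 and Hba-a2 were at 0 in LECs of RA callus at 4 dpf. The mural genes (6 of 6 detected) came to 348, 449, 170 and 233 CPM, or 14.9, 578, 102 and 232 CPM in LECs of at least 4 UMIs, and 6 lymphocyte genes to 8.37, 1.83, 4.29 and 4.59 CPM, with Cd3d, Cd3e and Ms4a1 at 0 in each library. The mesenchymal genes had a median log2 ratio of RA to control of 0.94 at 7 dpf and of -3.73 at 4 dpf, or 0.39 at 4 dpf with LECs of at least 4 UMIs. Without the cells called as doublets, the median at 7 dpf was 0.02, with 4 of 8 genes above 0. The mural genes had a median of 0.36 at 4 dpf and of 3.29 with LECs of at least 4 UMIs. With all LECs but without the cell of most UMIs of each gene in each library, the mural median at 4 dpf was -0.46. The erythroid genes had a median of -5.37 at 4 dpf. The part of these cells or of their free RNA in the ratios of RA to control, those of Selp, Eln, Fn1 and other matrix genes included, was not tested. For Fbln2, a matrix gene shared with fibroblasts, the values were 418, 181, 106 and 321 CPM in LECs and 461, 547, 391 and 556 CPM in BECs, with a ratio of RA to control of 3.02 (2.58 to 3.55) at 7 dpf.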

How the data were processed

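Single-cell suspensions of fracture callus were profiled with droplet-based 3′ RNA sequencing. The authors processed the reads with Cell Ranger 7.0.1 against mm10 (the submitters' processing notes) and deposited UMI counts per gene and cell, as 1 matrix per library with 32285 features. Cells were filtered and called by the limits given above. The members, gene lists and tests were chosen with earlier results of these data known.

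For the comparison of LECs with BECs, counts were summed per library and class and fitted with edgeR 4.0.16 (R 4.3.3; TMM, filterByExpr, quasi-likelihood test) with the library as a block, since both classes came from the same pooled calluses. Adjusted p-values are Benjamini-Hochberg over all genes tested, and genes under 0.05 were called. Nothing says which animals lie behind each library, and p-values measure the spread between the 4 libraries, which differ in day and treatment. In simulated data of the same size, 116 of 200 genes changed by 1 on the log2 scale were recovered among 13540 genes, with 2 other calls. The changed genes were drawn from those of higher counts, and far fewer changed than were called in the real data. No difference of day or treatment between libraries was simulated, so these numbers may not hold for the real libraries. RA was compared with control in LECs on CPM plus a pseudocount of 10, for genes of at least 20 UMIs over both libraries of a day, with no test. Ratios have exact conditional intervals and shares Clopper-Pearson intervals at 95%, which cover counting error only (SciPy 1.17.1).

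The text names genes of the rule, the list members of highest level or largest difference, the 15 called genes of largest and the 10 of smallest difference between LECs and BECs with at least 50 CPM in the higher class and 1 direction in all libraries, and the 8 genes of largest and the 8 of smallest ratio of RA to control at 7 dpf with the same direction at 4 dpf. Doublets were called with Scrublet (scanpy 1.11.5) and kept. DESeq2 1.42.0, other filters, rules, depths and denominators were tried as alternatives. Those with at least 4 UMIs of Prox1 plus Mmrn1 in the gene comparisons and with at least 1 UMI of Prox1 were chosen after seeing the data. So were those with BECs without Ptprc, and those that left out the cell of most UMIs of each gene in each library. Some genes that these rules select are not reported here.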

Additional observations from a re-analysis of the deposited data

How the results depend on the processing

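The counts of genes that differed between LECs and BECs stayed within 1.5 times under DESeq2, no filter, other cell limits, thinning and each other choice of LECs or BECs. Leaving out each library in turn gave 675 to 1223 genes higher and 719 to 1445 lower, and the lowest counts came without RA callus at 7 dpf. Without the library block that pairs the classes, 1334 genes were higher and 1442 lower. Against BECs without Ptprc, S100a8 went to 0.04 with all LECs, 0.00 with at least 1 UMI of Prox1 and 0.14 with at least 4 UMIs of Prox1 plus Mmrn1. In the same comparisons Lcn2 went to 4.20, 4.30 and 4.53. Cd74 went to 0.32 with all LECs and 0.37 with at least 4 UMIs, when Ngp was at 0.56. Nr2f2 was at -0.21 against venular BECs. The ratio of RA to control for the share of LECs at 7 dpf was 1.12 over endothelial cells without Ptprc. With a pseudocount of 50 CPM, 20 genes were higher in RA and 17 lower by at least 2-fold at 7 dpf, and 46 were higher and 78 lower at 4 dpf. At 4 dpf, 151 were lower with at least 40 UMIs and 127 with LECs of at least 4 UMIs. Without the highest cell of each gene, 44 were lower at 7 dpf, and Akr1b3 was at -0.29. The causes of these changes were not tested, apart from the higher pseudocount, which shrinks the ratios of genes of low level. The 36 LECs of control callus at 4 dpf limit every value at that day.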
